A study of Mus musculus with 18 samples.

Results

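The genes described here are 37 members of the endoplasmic reticulum (ER) folding, translocation and stress machinery, out of 31053 features counted in each library. They were named as a list and sorted by role into 11 chaperones, 4 disulfide isomerases, 8 translocation parts, 4 signal peptidase subunits, 3 disposal genes, 4 stress regulators and 3 targets of the transcription factor ATF4. Their counts of unique molecular identifiers (UMIs) were followed in droplet single-cell libraries of mouse mammary gland across the FVB/NJ pregnancy cycle and in the E18.5 mammary rudiment. The FVB/NJ cycle comprised the virgin adult of 10 weeks, with libraries A10, P7 and D12, and 2 libraries for each later stage. These were H and G for pregnancy day 12.5, F4 and B4 for day 18.5, and F11 and D6 for lactation, 10 days after birth. A single library covered post-involution, labelled 3 weeks post birth, while the study places it 3 weeks after weaning. C57BL/6 mice gave the E18.5 library, from dissected rudiments of female Lgr5-GFP embryos, and the adult library of 10 weeks that was set beside it. Each library pooled several animals, and the postnatal glands were sorted to deplete blood and endothelial cells (Ter119-, CD31-, CD45-) with staining for CD24 and CD29. No transgene, deletion or treatment separated the FVB/NJ groups. Replicates were separate pools, so p-values measure the spread between libraries and not between single animals.

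A protein bound for secretion carries a signal sequence that the signal recognition particle (SRP) reads at the ribosome. The chain is threaded through the Sec61 channel with the help of the translocon-associated SSR subunits, signal peptidase removes the signal, and chaperones and disulfide isomerases fold the chain while misfolded chains are passed back to the cytosol for disposal. When unfolded protein builds up, the unfolded protein response acts through ATF6, through XBP1 and through translation of ATF4, whose targets serve amino acid supply and the integrated stress response. The secretory cells of the lactating gland, which make caseins and whey proteins, are a classical case of heavy load on this pathway.

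Cells were put into basal, luminal progenitor (LP)/alveolar and mature luminal (ML) classes by marker genes that included no member, and UMIs were summed per library and class. Levels below are CPM, the UMIs of a gene scaled to 1000000 UMIs of the class sum outside 8 milk genes (5 caseins, Wap, Lalba and Glycam1). That scale was needed because the milk genes took between 0.217% and 4.0% of LP/alveolar UMIs in the adult libraries, 13.8% and 14.6% at pregnancy day 12.5, 31.8% and 34.8% at pregnancy day 18.5, and 75.5% (F11) and 77.8% (D6) in lactation. The LP/alveolar sums held between 699 cells (P7) and 5611 cells (H), and between 2128906 and 36812322 non-milk UMIs. The ML sums were thin after the adult stage, with between 152 and 301 cells in each pregnancy and lactation library. Basal cells of the lactating glands also carried milk UMIs, at 48.7% in F11 and 19.8% in D6, and ML cells at 34.8% and 36.7%.

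The adult library P7 stood apart from the others. Its cell barcodes had 14 bases where the others had 16, its LP/alveolar mitochondrial level was 3336 CPM against 27574 in A10 and 22280 in D12, and its level of 10 dissociation-response genes (Fos, Jun, Hspa1a and others) was 23356 against 9222 and 14445. The members were affected: in LP/alveolar cells Hspa5 was at 1504 in P7 against 406 and 423, while Sec61g was at 39.5 against 643 and 533. The number of members called in each comparison with the adult stage is therefore given with and without P7, as are the log2 changes of the members that carry the results from adult to lactation. The classes carried their own markers in each FVB/NJ library, as a gate by those markers requires. Plasma cell markers, which would bring ER genes with them, summed to at most 19.1 CPM in LP/alveolar cells (F11). Cells with at least 3 distinct plasma cell markers had been set aside, so neither value is an independent check of the classes. The LP/alveolar marker sum of the adults differed widely, from 2409 in D12 to 46688 in P7. The adult C57BL/6 library also stood apart in its barcodes. It shared between 0.0084% and 0.0629% of the barcodes of the smaller library with each other library of 16-base barcodes, whereas those shared between 0.749% and 2.02% among themselves, and P7 shared none with any of them.

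Most of the matched chaperone promoters held a sequence that was found before 1 of the other matched members. The ER stress response element (ERSE), the letters CCAAT and CCACG with 9 bases between them, was searched on both strands of the 250 bases before the start site in the RefSeq promoter windows of mouse build GRCm38.p6. Of the 37 members, 30 were matched by symbol. The element lay before 7 of these 30, against 35 of 27025 genes (0.13%). The 7 comprised 6 of 9 matched chaperones (Hspa5, Hsp90b1, Calr, Canx, Dnajc3 and Creld2) and the isomerase Pdia6, and no match was found in the windows of the 6 matched translocation parts. The CCACG letters alone were common, in 20 of 30 members and 31.0% of genes. It was not found before Dnajb9, Dnajb11 and Sdf2l1, the other 3 matched chaperones. The matches below are shown because they were found mostly before chaperones. The element is named for the ER stress response, so its presence before chaperones is a description and no independent support for the grouping. Capitals mark the CCAAT and CCACG letters, or ATTGG and CGTGG where the match is on the strand opposite to the gene.
Hspa5: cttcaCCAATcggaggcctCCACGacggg
Hsp90b1: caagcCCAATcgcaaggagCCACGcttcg
Calr: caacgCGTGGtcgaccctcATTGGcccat
Canx: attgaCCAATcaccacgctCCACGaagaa
Dnajc3: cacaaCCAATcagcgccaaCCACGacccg
Pdia6: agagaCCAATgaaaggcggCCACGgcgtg
The Hspa5 stretch is chr2:34772020-34772048 on the plus strand, with the element ending 47 bases before the start. The others are Hsp90b1 at chr10:86705633-86705661 (minus strand, 1 of its 2 matches), Calr at chr8:84847070-84847098 (minus strand), Canx at chr11:50325795-50325823 (minus strand), Dnajc3 at chr14:118937822-118937850 (plus strand) and Pdia6 at chr12:17266486-17266514 (plus strand). All lie upstream of the start site that RefSeq gives for the window, although other annotated transcripts of Hspa5 and Hsp90b1 begin within it. A match of letters is a description and does not show that a factor binds there.

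A different set of letters, TGATGNAA, of the kind bound by ATF4 with a C/EBP partner, was found in 3 of the 30 windows, against 3.91% of genes. It lay before 2 of the 3 ATF4 targets, Chac1 and Asns, and before the disposal gene Herpud1. Capitals mark the match, which reads TTGCATCA where it is on the opposite strand.
Chac1: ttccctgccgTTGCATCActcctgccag
Asns: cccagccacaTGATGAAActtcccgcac
Herpud1: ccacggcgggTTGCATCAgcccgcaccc
These lie at chr2:119351039-119351066 (plus strand), chr6:7693215-7693242 (minus strand) and chr8:94386307-94386334 (plus strand). The cyclic AMP type letters TGACGTG occurred before 1 member, Hspa5, and before 1.85% of genes.

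Between the virgin adult and lactation day 10, translocation and signal peptidase parts and ATF4 targets rose in LP/alveolar cells relative to non-milk RNA. No chaperone passed the test. As a share of all UMIs, 27 members were lower in lactation and 0 higher, where 83.2% of genes were lower. The directions that follow are relative to non-milk RNA. Translocation parts (Ssr4, Sec61b, Ssr3, Srp14 and Ssr1), signal peptidase subunits (Sec11c and Spcs3), the isomerase P4hb, the disposal gene Edem1 and all 3 ATF4 targets rose, and the isomerase Pdia3 fell. In all, 13 of 37 members passed an adjusted p under 0.05 (edgeR quasi-likelihood test, Benjamini-Hochberg over all genes), 12 higher and 1 lower. Of all 13023 genes tested 28.8% passed, 14.4% in each direction, so the count of members was close to the background while their direction was mostly upward. The median log2 change was 0.63 over the members and -0.10 over all genes.

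**Figure D1:**
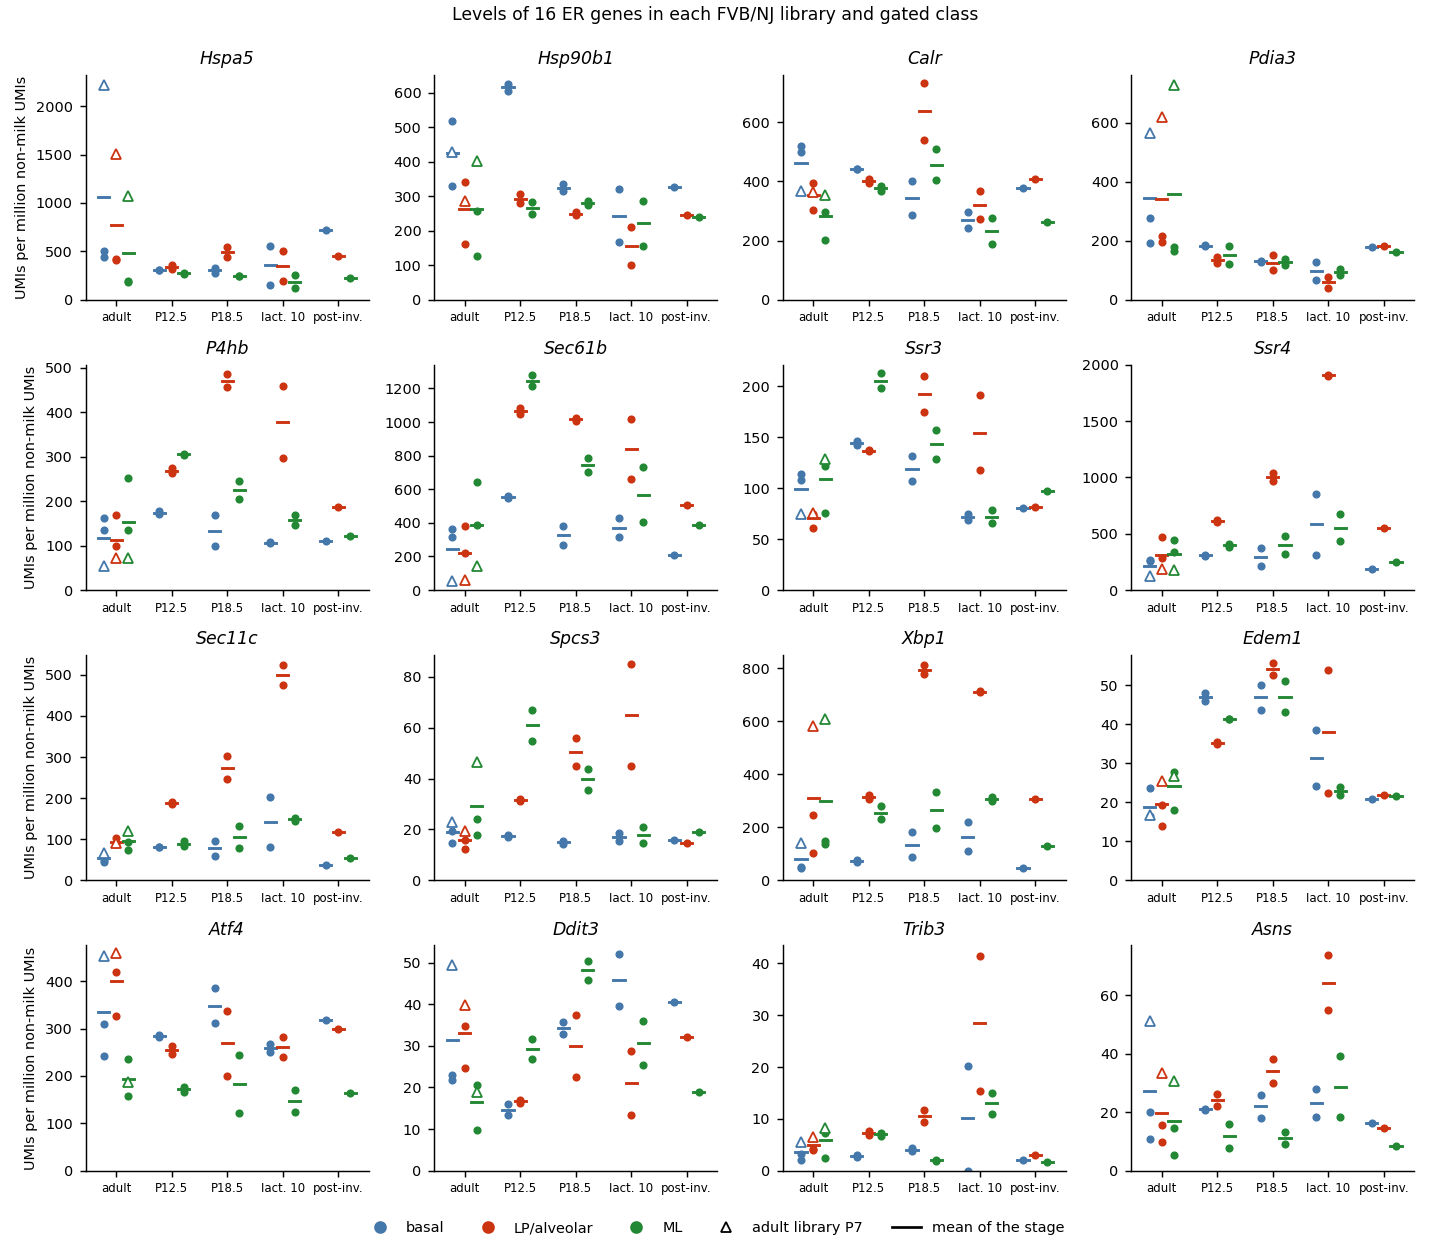
Levels of 16 of the 37 genes (CPM of non-milk UMIs, vertical axes starting at 0) in each FVB/NJ library by stage and gated class, 1 point per library (open triangles are P7) with short lines at the means. Ssr4 in LP/alveolar cells reaches 1911 and 1903 in the lactation libraries against at most 469 in the adult, and P7 is the adult point at 1504 for Hspa5.

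With all libraries, the chaperones had the median nearest to 0 of the 7 roles. Of 11 tested, 0 passed in LP/alveolar cells with edgeR from adult to lactation, where 28.8% of genes did. Differences between roles were not tested. The median log2 change of the chaperones was -0.05, with a range from -0.70 to 1.01. Without P7 that median was 0.31. Hspa5 (BiP), the main HSP70 chaperone of the ER lumen, was at 406, 1504 and 423 in A10, P7 and D12, at 317 and 360 at pregnancy day 12.5, at 545 and 439 at day 18.5, and at 197 and 504 in lactation. The lactation values span those of A10 and D12. Its log2 change was -0.70 (SE 0.59, adjusted p = 0.41 by edgeR), and 0.08 (SE 0.40) without P7, so its direction rested on that library.

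Hsp90b1 (GRP94), the HSP90 of the ER, was at 341, 286 and 162 in the adults, 279 and 306 at pregnancy day 12.5, 253 and 245 at day 18.5, and 99.6 and 212 in lactation, with a log2 change of -0.42 (SE 0.47), and -0.42 without P7. The lectin chaperone Calr (calreticulin) was at 396, 365 and 304 in the adults, 394 and 409 at pregnancy day 12.5, 734 and 539 at day 18.5, and 273 and 368 in lactation. Its adult to lactation log2 change was 0.19 (SE 0.36), and 0.17 without P7. The adult and lactation groups overlapped for all 3 of these genes. Of the other chaperones, the membrane lectin Canx (0.40), the HSP40 proteins Dnajc3 (0.63), Dnajb11 (-0.12) and Dnajb9 (-0.05), the nucleotide exchange factor Hyou1 (-0.36), Sdf2l1 (1.01), Creld2 (-0.66) and the secreted stress protein Manf (0.35) had the log2 changes in parentheses, none of which passed.

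The disulfide isomerases went in opposite directions. P4hb (PDI), the founding isomerase of the family, was at 168, 71.4 and 98.4 in the adults, 275 and 263 at pregnancy day 12.5, 456 and 486 at day 18.5, and 297 and 459 in lactation. Every pregnancy and lactation library was above every adult library. The adult to lactation log2 change was 2.03 (SE 0.48, adjusted p = 0.013 by edgeR), and 1.78 (adjusted p = 0.0079) without P7. Pdia3 (ERp57), which works on glycoproteins held by calnexin and calreticulin, was at 195, 619 and 215 in the adults and at 39.7 and 77.8 in lactation, with 124, 144, 151 and 101 in H, G, F4 and B4. It fell by 2.10 on the log2 scale (SE 0.52, adjusted p = 0.016 by edgeR), and without P7 by 1.48 (adjusted p = 0.012). Pdia4 and Pdia6 had log2 changes of -0.23 and -0.54 and did not pass.

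The translocation parts carried the most calls of any role, 5 of 8, where 28.8% of genes passed, although the smaller group of ATF4 targets was called in full. All 8 had a positive log2 change, between 0.60 and 2.89 with a median of 1.42. Ssr4 (TRAP delta), a subunit of the translocon-associated protein complex, was at 469, 183 and 284 in the adults, 619 and 604 at pregnancy day 12.5, 1038 and 970 at day 18.5, and 1911 and 1903 in lactation. No adult library overlapped any later one, and the pairs of later libraries lay close together at each stage. The log2 change to lactation was 2.89 (SE 0.52, adjusted p = 0.0039 by edgeR), and 2.62 (adjusted p = 0.0012) without P7.

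Sec61b, the small beta subunit of the channel, was at 379, 61.1 and 222 in the adults and between 662 and 1084 in the 6 pregnancy and lactation libraries, with 1047 and 1084 already present at pregnancy day 12.5. Its log2 change to lactation was 2.18 (SE 0.69, adjusted p = 0.041 by edgeR), and 1.76 (SE 0.38, adjusted p = 0.0085) without P7. This call was lost on leaving out D12 or any 1 of the 6 later libraries (adjusted p between 0.062 and 0.21). Ssr3 rose by 1.48 on the log2 scale, Srp14 of the SRP by 1.46, and Ssr1 by 1.39, with adjusted p between 0.0098 and 0.014 by edgeR. Without P7 these log2 changes were 1.48, 1.40 and 1.57, with adjusted p between 0.0031 and 0.0088. The pore-forming Sec61a1 (log2 change 0.64) and Ssr2 (0.60) did not pass, and Ssr2 did without P7 (0.89, adjusted p = 0.030). Sec61g, the gamma subunit, was at 643, 39.5 and 533 in the adults, 1021 and 1204 at pregnancy day 12.5, 480 and 1180 at day 18.5 and 537 and 1216 in lactation. F4 and F11 were low beside their partner libraries, and its log2 change of 1.37 (SE 0.94) did not pass.

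Signal peptidase is the membrane complex that removes the signal sequence in the lumen. Its catalytic subunit Sec11c was at 88.3, 91.1 and 103 in the adults, 186 and 190 at pregnancy day 12.5, 301 and 246 at day 18.5, and 476 and 524 in lactation. The libraries of each stage lay close together and no stage overlapped the next. The log2 change to lactation was 2.76 (SE 0.31, adjusted p = 0.00050 by edgeR), the smallest adjusted p of the 37 members in this comparison, and it was 2.71 without P7. Spcs3, an accessory subunit, was at 15.7, 19.3 and 12.1 in the adults and at 44.8 and 84.9 in lactation, a log2 change of 2.41 (SE 0.35, adjusted p = 0.0015 by edgeR), and 2.50 without P7. Spcs1 (0.97, adjusted p = 0.050) and Spcs2 (0.71, adjusted p = 0.28) did not pass by edgeR with all libraries, and passed without P7, with log2 changes of 0.89 (adjusted p = 0.023) and 1.29 (adjusted p = 0.017).

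Among the disposal genes, Edem1, a lectin that picks out misfolded glycoproteins, was at 19.3, 25.4 and 13.8 in the adults, 34.8 and 35.4 at pregnancy day 12.5, 55.6 and 52.7 at day 18.5, and 22.3 and 53.9 in lactation. F11 fell within the adult range and D6 did not. The log2 change of 1.35 (SE 0.39, adjusted p = 0.028 by edgeR) was 1.49 without P7 and 0.55 (adjusted p = 0.37) without D6. Sel1l, the scaffold of the HRD1 ubiquitin ligase, had a log2 change of 0.63, and Herpud1, a stress-induced partner of that ligase, of -1.12, or -0.31 without P7, and neither passed.

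Of the stress regulators, none passed with all libraries (0 of 4 by edgeR), where 28.8% of genes did. Xbp1, the transcription factor activated by IRE1 splicing and needed by many secretory cells, was at 248, 583 and 102 in the adults, 308 and 323 at pregnancy day 12.5, 778 and 812 at day 18.5, and 713 and 709 in lactation. The lactation libraries were above all 3 adults, with P7 the highest of those. The log2 change was 1.61 (SE 0.56, adjusted p = 0.056 by edgeR), and 2.28 (SE 0.44, adjusted p = 0.0059) without P7. These counts do not separate spliced from unspliced Xbp1.

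Atf4, whose activity is set mostly by translation and not by transcript level, was at 326, 459 and 419 in the adults and at 281 and 240 in lactation, a log2 change of -0.25 (SE 0.33), and -0.19 without P7. Ddit3 (CHOP), the stress factor downstream of ATF4, was at 24.6, 39.9 and 34.9 in the adults, 17.0 and 16.3 at pregnancy day 12.5, 37.5 and 22.4 at day 18.5, and 28.8 and 13.5 in lactation, with overlapping groups and a log2 change of -0.28 (SE 0.35), and -0.18 without P7. Atf6, the membrane-bound sensor and factor, had a log2 change of 0.63 (SE 0.35).

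All 3 members listed as ATF4 targets rose, while Atf4 and Ddit3, itself downstream of ATF4, did not pass. The wider list of ATF4 targets, given below, was mixed, with some called higher and Atf3 and Sesn2 lower. Trib3, a pseudokinase that feeds back on ATF4 and CHOP, was at 3.94, 6.58 and 4.17 in the adults, 7.58 and 6.93 at pregnancy day 12.5, 9.47 and 11.7 at day 18.5, and 41.4 and 15.5 in lactation. Its log2 change was 2.93 (SE 0.41, adjusted p = 0.0013 by edgeR), and 3.09 without P7. Chac1, which breaks down glutathione, was at 1.24, 0.470 and 7.58 in the adults and at 29.4 and 14.7 in lactation, with 3.34 to 4.62 in the 4 pregnancy libraries. Its log2 change of 3.11 (SE 0.70, adjusted p = 0.011 by edgeR) rested on few counts, 1 UMI in P7 among them, and it was 2.84 (adjusted p = 0.011) without P7 and 2.57 (adjusted p = 0.066) without F11. Asns, which makes asparagine, was at 9.84, 33.4 and 15.7 in the adults, 22.2 and 26.2 at pregnancy day 12.5, 29.9 and 38.3 at day 18.5, and 54.9 and 73.6 in lactation, a log2 change of 2.19 (SE 0.39, adjusted p = 0.0039 by edgeR) and 2.69 without P7. For each of the 3 genes both lactation libraries were above every earlier library, and F11 was the higher of the pair for Trib3 and Chac1 and D6 for Asns.

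The 13 calls depended on which libraries were kept. There were 17 without P7 (background 37.4%), 9 without F11 (background 17.1%) and 6 without D6 (background 9.31%), and those that held when any 1 of the 9 libraries was left out were Ssr4, Sec11c, Spcs3, Trib3 and Asns. As a share of all UMIs, with the milk genes in the total and no TMM scaling, 27 members were lower in lactation and 0 higher by edgeR, where 83.2% of genes were lower, and the median over all genes was then -2.54. On that scale 31 members were lower in lactation than at pregnancy day 18.5, where 72.9% of genes were. The upward directions above therefore held relative to non-milk RNA only, except for Ssr4, Sec11c, Trib3 and Chac1. Those 4 kept positive log2 changes that did not pass, and Pdia3 was called lower on either scale.

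**Figure D2:**
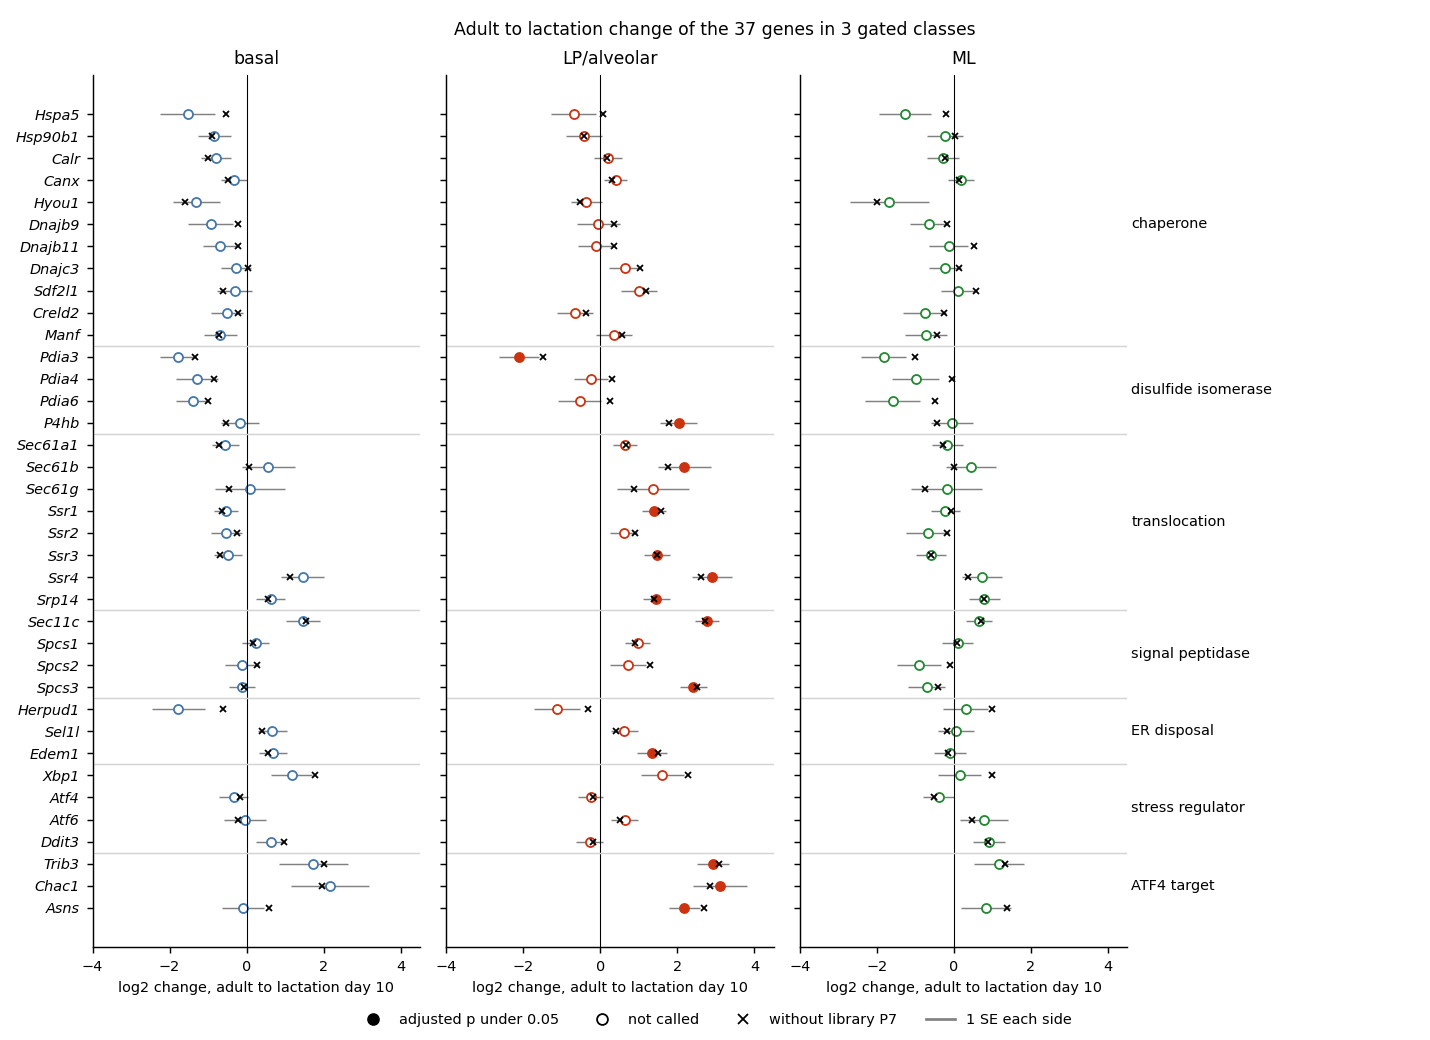
Log2 change from adult to lactation day 10 (horizontal axis) of each of the 37 genes in basal, LP/alveolar and ML cells. Points and bars are the edgeR estimate and its SE, filled points passed an adjusted p under 0.05, and crosses are the estimate without P7. In LP/alveolar cells the translocation parts, signal peptidase and ATF4 targets lie right of 0. There 13 points are filled, against 0 in basal and 0 in ML cells. Of all genes 28.8%, 4.03% and 4.43% passed in LP/alveolar, basal and ML cells.

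Taken step by step in LP/alveolar cells, no member passed by edgeR with all libraries. From adult to pregnancy day 12.5, 0 of 37 members passed by edgeR (13 at an unadjusted p under 0.05) where 11% of genes did, and 4 by DESeq2 where 17.9% did, and without P7 (background 17.8%) Sec61b and Sec11c rose, with log2 changes of 1.77 (adjusted p = 0.018) and 0.96 (adjusted p = 0.022). The translocation parts had the highest median at this step (log2 change 0.89) and the stress regulators the lowest (-0.41). The 10 dissociation-response genes fell more at this step, with a median log2 change of -1.78 and with Fos, Hspa1a and Jun called lower by edgeR, and their part in the values of the stress regulators was not tested. From pregnancy day 12.5 to 18.5, 0 passed by edgeR (6 unadjusted) where 0.376% of genes did, and 0 by DESeq2 where 4.45% did, yet 34 of 37 log2 changes were positive, with a median of 0.58 against 0.00 over all genes. The chaperones had a median log2 change of 0.61. The dissociation-response genes had a larger positive median here, 1.07, with 0 of 10 called by edgeR, and their part in these values was not tested. As a share of all UMIs, 25 member log2 changes were positive at this step, with a median of 0.12 against -0.44 over all genes. From pregnancy day 18.5 to lactation, 0 passed by edgeR (5 unadjusted) where 2.96% of genes did, and 3 by DESeq2 where 6.83% did. The chaperones had a median log2 change of -0.36 here, the translocation parts 0.06, signal peptidase 0.42 and the ATF4 targets 1.63, and differences between roles were not tested. Without P7 (background 7.91%), which enters this step only through the shared scaling and estimate of spread, Sec11c, Trib3, Chac1 and Asns passed, with log2 changes of 1.11, 1.63, 2.48 and 1.15 and adjusted p between 0.021 and 0.049.

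Post-involution was seen in 1 library. In LP/alveolar cells, 19 of the 37 members lay below both lactation libraries, 10 between them and 8 above both, where 29.1% of genes lay below both and 53.7% above both. Below both were all 3 ATF4 targets, all 4 signal peptidase subunits and 6 of 8 translocation parts, along with P4hb, Xbp1, Edem1 and 3 chaperones. Ssr4 was at 553, Sec11c at 118, P4hb at 188, Xbp1 at 306, Trib3 at 3.08, Chac1 at 1.25 and Asns at 14.4, of which P4hb, Ssr4 and Sec11c lay above the adult FVB/NJ range. Above both lactation libraries were Pdia3 at 181, Hsp90b1 at 247, Calr at 407, Atf4 at 300.1 and Ddit3 at 32.1, with Hyou1, Creld2 and Herpud1. The study states that an adult FVB/NJ library and the post-involution library were processed together, and 1 library allows no test.

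In basal and ML cells the same steps gave no calls by edgeR with all libraries. In basal cells 0 of 37 members passed by edgeR from adult to pregnancy day 12.5 (background 1.16%, 4 unadjusted, 1 by DESeq2), from day 12.5 to 18.5 (0.0147%, 3 unadjusted, 0 by DESeq2), from day 18.5 to lactation (0.821%, 0 unadjusted, 0 by DESeq2) and from adult to lactation (4.03%, 6 unadjusted, 3 by DESeq2). The DESeq2 backgrounds for these 4 were 5.2%, 1.51%, 3.4% and 7.72%. In ML cells, where 36 members could be tested (all but Chac1), the count was 0 by edgeR at each of these steps, with backgrounds of 7.25%, 0.0576%, 0.0345% and 4.43%, unadjusted counts of 5, 1, 2 and 2, and DESeq2 counts of 1, 0, 0 and 1 (DESeq2 backgrounds 9.76%, 0.587%, 0.691% and 6.76%). The median member log2 change from adult to lactation was -0.31 in basal and -0.18 in ML cells. Without P7, Xbp1 rose and Pdia3 fell in basal cells from adult to lactation (background 6.83%), and Spcs3 rose and Dnajc3 fell in ML cells from adult to pregnancy day 12.5 (background 13.1%). Also without P7, 0 members passed by edgeR in basal cells from adult to pregnancy day 12.5 (background 2.79%, 3 unadjusted) and 0 in ML cells from adult to lactation (background 8.72%, 6 unadjusted). Basal Ssr4 was at 256, 121 and 269 in the adults and at 854 (F11) and 314 (D6) in lactation, and basal Sec11c was at 50.3, 66.3 and 44.9 and then at 202 and 81.0. F11, the higher library for both, also had the higher milk share in its basal cells, and the part of free or shared alveolar RNA in these values was not tested.

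Whether the LP/alveolar change itself differed from the change in the other classes was tested with a stage by class term. From adult to lactation, 19 of 37 members changed more upward in LP/alveolar than in basal cells and 0 more downward, against 16.1% of genes in either direction and 8.15% upward (edgeR, adjusted p under 0.05). The 19 were all 8 translocation parts, all 4 signal peptidase subunits, 5 chaperones (Hspa5, Calr, Canx, Dnajc3 and Manf), P4hb and Asns. The largest differences in log2 change were 2.46 for Spcs3 (SE 0.34, adjusted p = 8.3e-05), 2.18 for P4hb (SE 0.35, adjusted p = 0.00034) and 2.11 for Asns (SE 0.41, adjusted p = 0.0015). For the chaperones the difference was smaller, between 0.72 and 1.20, and Hspa5 (0.75, adjusted p = 0.038) no longer passed without P7 (0.62, adjusted p = 0.11). In basal cells the adult and lactation means were 1057 and 355 for Hspa5, 462 and 269 for Calr and 185 and 150 for Canx. They were 95.7 and 76.4 for Dnajc3 and 164 and 101 for Manf. The adult basal means of Hspa5 and Dnajc3 without P7 were 475 and 70.8. None of the 5 chaperones passed by edgeR in LP/alveolar cells or in basal cells alone. Without P7, 20 members passed, where 15.3% of genes did. Hspa5 and Spcs1 (adjusted p = 0.11) were then lost, Sdf2l1 and Pdia6 were added, and Ddit3 changed more downward (-1.22, adjusted p = 0.037). The median difference was 0.94 over the members and 0.05 over all genes.

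Against ML cells the difference passed in 18 of 37 members, all upward, where 11.8% of genes passed and 8.28% upward. These were again the 8 translocation parts and 4 signal peptidase subunits, with Dnajc3, Manf, P4hb, Edem1, Xbp1 and Chac1. Spcs3 differed by 3.17 (SE 0.39, adjusted p = 5.6e-05 by edgeR), Chac1 by 3.05 (SE 0.82, adjusted p = 0.020), with 3 UMIs in F11 and 1 in D6 on its ML side, and Ssr4 by 2.45 (SE 0.38, adjusted p = 0.00036). Without P7, 16 passed, where 9.82% of genes did, and Srp14 (adjusted p = 0.053) and Manf (adjusted p = 0.068) were lost. The median was 1.10 over the members and 0.37 over all genes. The counts fell to 7 against basal and 8 against ML cells without D6 (backgrounds 5% and 3.41%). They were 10 in both comparisons without TMM scaling, 9 of them upward (backgrounds 17.4% and 10.7%), and 10 in both with cells of at least 1000 genes (9.08% and 4.64%). Against basal they fell to 12 without H (background 12.5%) or without G (12.2%). As a share of all UMIs 18 members changed more downward in LP/alveolar cells in each comparison, with Spcs3 alone more upward against ML cells, where 55.9% (basal) and 44.2% (ML) of genes changed more downward, so this result too is relative to non-milk RNA.

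Within the virgin adult, some members differed between classes, and the share called was above the background between ML and basal cells with all 3 libraries, near it there without P7 or without A10, and near or below it in the other 2 pairs of classes. Compared within the 3 adult libraries, 23 of 37 members differed between ML and basal cells by edgeR, 13 higher and 10 lower in ML, where 48.9% of all genes differed (23.4% higher and 25.5% lower). Hspa5 was at 197, 1077 and 183 in ML and at 504, 2222 and 445 in basal cells of A10, P7 and D12, lower in ML in each library (log2 difference -1.17, SE 0.14, adjusted p = 0.00014). Dnajb9 (ERdj4), a HSP40 partner of Hspa5, was also lower in ML than in basal cells (-1.62, SE 0.17, adjusted p = 4.8e-05). The dissociation-response genes had a median log2 difference of -0.61 between the same cells, with Dnajb1, Egr1, Hspb1 and Junb called lower in ML and Jun higher by edgeR, and their part in the Hspa5 and Dnajb9 differences was not tested. Higher in ML were Spcs2 (1.23), Sel1l (1.53), Xbp1 (1.81) and Chac1 (2.17). The chaperones Dnajc3, Sdf2l1 and Manf were also called higher in ML, and Hsp90b1, Calr and Canx lower. Of these, Sdf2l1, Manf and Canx no longer passed without P7. The count was 14 without P7, where 38.7% of genes passed, and 10 without A10, where 27.4% did.

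LP/alveolar cells differed from basal cells in 7 of 37 members, 5 higher and 2 lower, where 34.9% of genes did (15.9% higher and 19% lower). Xbp1 was at 248, 583 and 102 in LP/alveolar and at 45.5, 143 and 49.1 in basal cells, higher in each library (log2 difference 2.05, SE 0.27, adjusted p = 0.00034 by edgeR). Chac1 (2.05), Sec11c (0.995), Ssr4 (0.68) and Spcs2 (0.49) were also higher and Canx (-0.52) and Dnajb9 (-0.62) lower. Against ML cells 10 differed, where 29.9% of genes did (14.9% higher and 15% lower): Hspa5 (1.02), Dnajb9 (1.001), Atf4 (1.14) and Ddit3 (1.13) were higher in LP/alveolar cells, and Dnajc3, Sec61b, Srp14, Spcs2, Spcs3 and Sel1l lower. The counts were 5 and 6 without P7 (backgrounds 25.9% and 19.8%) and 2 and 3 without A10 (backgrounds 16.8% and 11.4%). Without P7, Xbp1, Chac1 and Sec11c stayed higher than in basal cells, and Hsp90b1 and Ssr1 were called lower. Ssr4, Spcs2, Canx and Dnajb9 then no longer passed. Against ML cells Hspa5, Dnajb9, Atf4 and Ddit3 stayed higher without P7, and Srp14 and Sel1l lower. Dnajc3, Sec61b, Spcs2 and Spcs3 no longer passed there. The dissociation-response genes were also higher in LP/alveolar than in ML cells in each of the 3 libraries (9222 against 6552, 23356 against 20554 and 14445 against 6761), and their part in the Hspa5, Atf4 and Ddit3 differences was not tested.

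Of the rest of the pathway, taken from lists of other genes, more passed upward than downward in LP/alveolar cells from adult to lactation. In this comparison 9 of 22 other translocation and glycosylation genes rose and 0 fell by edgeR, among them the SRP receptor genes Srpr and Srprb and the channel partners Sec62 and Sec63, with a median log2 change of 1.16. Over all genes 14.4% rose. Against basal cells the change was more upward in 18 of these 22, where it was in 8.15% of genes. Of 11 other disposal genes 6 rose, including Derl1, Derl3, Syvn1 and Edem2. Of 14 other folding enzymes 6 rose, including the oxidases Ero1l and Ero1lb and the glycoprotein folding sensor Uggt1, and Fkbp14 fell. Of 11 tested sensors and regulators, 4 rose: Eif2ak3 (PERK), Mbtps2, Ppp1r15b and Wfs1. Of 18 other ATF4 targets 7 rose, among them Phgdh of serine synthesis, the amino acid carriers Slc7a5 and Slc7a11 and the alanyl-tRNA synthetase Aars, and Atf3 and Sesn2 fell. Without P7, where 37.4% of genes passed in either direction, 13 translocation and glycosylation genes, 7 disposal genes, 7 folding enzymes, 4 sensors and regulators and 9 ATF4 targets rose, and Sesn2 no longer fell. In the same setting 17 of 22 translocation and glycosylation genes changed more upward than in basal cells, where 15.3% of genes differed in either direction. Of the 10 dissociation-response genes 0 passed by edgeR, and in 5 of them (Fos, Fosb, Jun, Junb and Hspb1) the change in LP/alveolar cells was lower than that in basal cells. With all libraries 16.1% of genes differed in that comparison in either direction.

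Cells of 1 library also differed in step with their milk content. LP/alveolar cells of F4, B4, F11 and D6 were put into 3 equal bins by the share of their UMIs in the 8 milk genes, and the members were again scaled without those genes. Of 34 members with at least 100 UMIs in each library, 12 were higher in the top than in the bottom bin in all 4 libraries, against 15.4% of 4705 genes, and 3 were lower in all 4, against 24.1%. The 12 were Ssr1, Ssr2, Ssr3, Ssr4, Sec11c, Spcs1, Spcs3, P4hb, Dnajc3, Edem1, Trib3 and Asns, and the 3 were Pdia3, Ddit3 and Creld2.

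Ssr4 was at 750 in the bottom and 1377 in the top bin of F4, at 583 and 1385 in B4, at 1125 and 3016 in F11 and at 1043 and 2808 in D6. Sec11c was at 225 and 371 in F4, 155 and 316 in B4, 302 and 743 in F11 and 380 and 669 in D6. Hspa5 was at 581 and 505 in F4, 386 and 470 in B4, 171 and 256 in F11 and 508 and 506 in D6. All 4 SSR subunits and 3 of 4 signal peptidase subunits, all but Spcs2, were thus higher with milk share in all 4 libraries, as was the chaperone Dnajc3, while Hspa5 was higher in B4 and F11 only. P4hb was at 389 and 518 in F4, 288 and 680 in B4, 247 and 288 in F11 and 410 and 516 in D6. Cells are not replicates, so these are descriptions with no test. The top bins were shallower in non-milk RNA, with a median of 1735 UMIs per cell against 2868 in F11 and 4066 against 4764 in D6, and the part of that depth in the contrast was not tested.

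**Figure D3:**
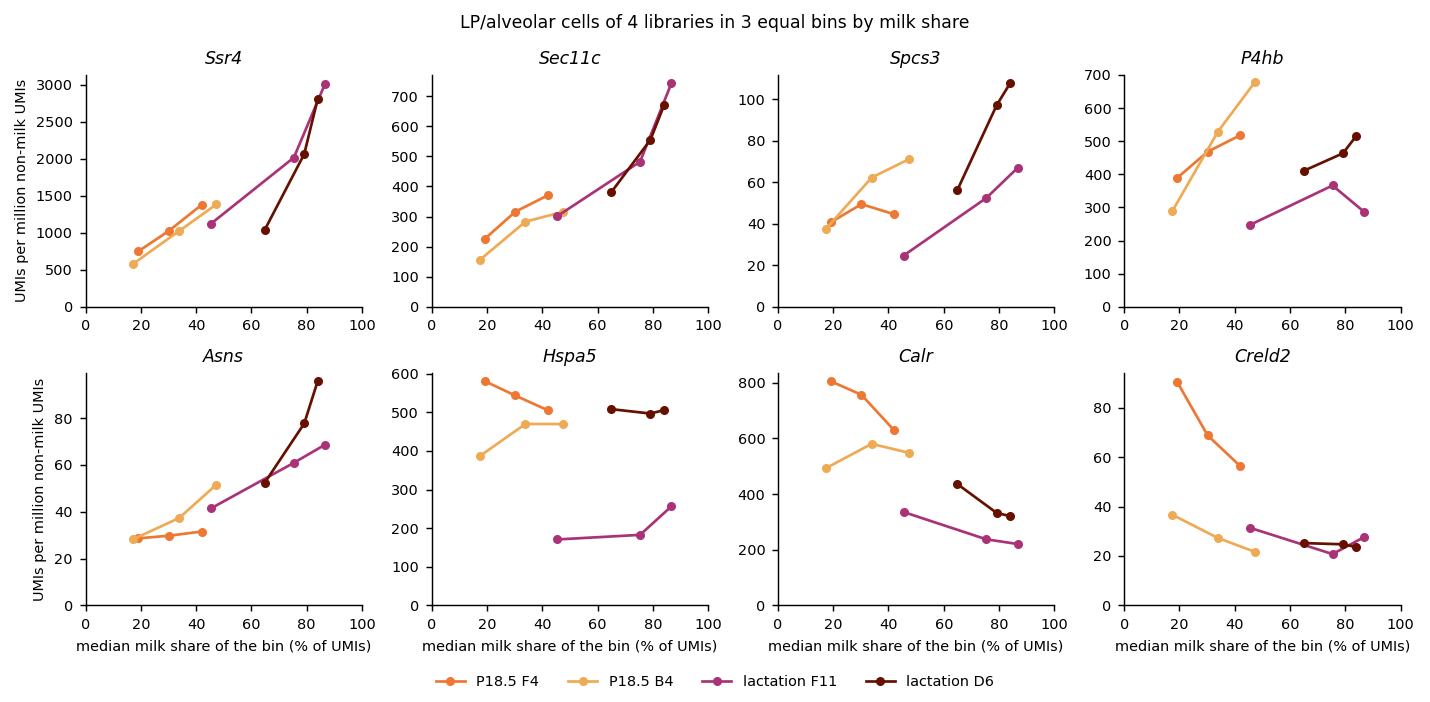
Levels of 8 genes (CPM of non-milk UMIs) in LP/alveolar cells of 4 libraries, in 3 bins of equal cell number, against the median milk share of the bin (% of UMIs). Each line is 1 library. Ssr4 climbs with milk share in all 4, from 1125 to 3016 in F11, while Hspa5 in D6 goes from 508 to 506.

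The E18.5 mammary rudiment had another pattern of the same genes. It was set beside the adult C57BL/6 library, 1 library each, so the values have counting intervals (95% Poisson) and no test, and stage and processing cannot be told apart. The adult C57BL/6 library stood apart in its barcodes, as given above, and the part of this in the values was not tested. Adult FVB/NJ values, of another strain, are therefore given beside several of the genes. The study describes E18.5 mammary cells as closer to basal than to luminal cells, with little sign that lineages had separated. Basal, luminal and LP/alveolar are therefore names of gates at E18.5, not of adult lineages. The luminal cells of the rudiment could not be split as in the adult. The LP/alveolar marker sum was 240 CPM in the cells gated as such, against 3296 in adult C57BL/6, and only 37 cells met the ML rule. All 2786 luminal cells were therefore used, with 8470 in the adult. The mix of classes differed, since 1619 of the E18.5 luminal cells passed the LP/alveolar gate and 1130 could not be assigned, while 5757 of the adult ones were ML and 2556 LP/alveolar. Values are therefore given also for the cells of the LP/alveolar gate in both libraries, a comparison added after the data were seen. At least 2-fold higher at E18.5 were 5 of 37 members in luminal cells (background 18.8%) and 8 were at least 2-fold lower (background 26.1%). Within the LP/alveolar gate 8 of 36 members that had counts enough for a fold were higher (background 15.9%) and 2 lower (background 25.2%). In basal cells these counts were 4 and 5 of 36 (backgrounds 13.9% and 25.8%).

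Trib3 and Chac1 were the ATF4 targets that stood high in the embryonic cells. In luminal cells Trib3 was at 48.6 (interval 45.7 to 51.5) at E18.5 and at 2.57 (2.15 to 3.05) in the adult. Chac1 was at 26.8 (24.7 to 29.1) against 0.909 (0.668 to 1.21), and Ddit3 at 56.8 (53.7 to 60.0) against 15.4 (14.4 to 16.5). Within the LP/alveolar gate Trib3 was at 49.5 against 1.78, Chac1 at 27.3 against 0.105 (1 UMI) and Ddit3 at 54.9 against 22.6, so these 3 were higher in either setting. The adult FVB/NJ LP/alveolar values given above were also lower than these at E18.5, at most 6.58 for Trib3, 7.58 for Chac1 and 39.9 for Ddit3.

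Atf4 and Asns depended on which adult cells were set beside the rudiment. Atf4 was at 512 (503 to 522) against 226 (222 to 230) in all luminal cells, and at 515 against 405, or 1.27-fold, within the LP/alveolar gate, the adult ML cells being at 184. Asns was at 31.9 and 26.4 in all luminal cells, and at 34.2 and 15.7 within the gate, where the adult FVB/NJ libraries ranged from 9.84 to 33.4 for Asns and from 326 to 459 for Atf4. Of 18 other ATF4 targets, 8 were at least 2-fold higher at E18.5 in all luminal cells (background 18.8%) and 9 within the gate (background 15.9%). Among them were Psat1, Shmt2 and Mthfd2 of serine and one-carbon metabolism and the carrier Slc7a11. At least 2-fold lower were 3 in each (backgrounds 26.1% and 25.2%), including Atf3 and Nupr1.

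Basal cells gave the same order for Trib3 (14.4 against 2.001) and Chac1 (9.89 against 0 UMIs, which allows up to 0.321), but Atf4 was at 419 and 411, Ddit3 at 39.9 and 32.3 and Asns at 27.6 and 14.5. Of the 18 other ATF4 targets 5 were at least 2-fold higher there and 3 lower, where 13.9% of genes were higher and 25.8% lower. The 1967 cells of the E18.5 library that carried markers of other tissues had Trib3 at 38.2, Chac1 at 20.1, Ddit3 at 59.8 and Atf4 at 490, so the high values were not particular to the gated epithelium, and the part of preparation was not tested. Summed over the 10 dissociation-response genes, the level was lower in this library, at 5352 in its basal cells against 17367 in the adult C57BL/6 basal cells, and at 3137 against 24903 within the LP/alveolar gate. By gene, 4 of 10 were at least 2-fold lower in basal cells (background 25.8%) and 7 within the gate (background 25.2%). Hspa1a was at least 2-fold higher in both and Dnajb1 in basal cells.

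Low at E18.5 was Sec11c, which rose in lactation. In luminal cells Sec11c was at 20.5 (interval 18.7 to 22.5) against 198 (194 to 202) in the adult, and within the LP/alveolar gate at 20.5 against 144, with 88.3 to 103 in adult FVB/NJ. Atf6 was at 6.70 against 34.6 in all luminal cells and at 6.48 against 28.5 within the gate, but adult FVB/NJ LP/alveolar cells were at 14.3, 9.86 and 11.4 in A10, P7 and D12, closer to the E18.5 value. These were the 2 members at least 2-fold lower within the gate. For others the gap was wider beside the ML-rich adult pool than within the gate. Dnajc3 was at 63.7 against 272 in all luminal cells, at 63.8 against 110 within the gate and at 53.9 against 109 in basal cells. In adult FVB/NJ it was at 101, 179 and 57.8 in LP/alveolar cells, a range that spans the E18.5 value. Spcs2 was at 128 against 475 in all luminal cells and at 130 against 184 within the gate, and Xbp1 was at 67.9 (64.5 to 71.4) against 167 (163 to 170) and at 67.2 against 106. Sec61g went the other way, at 874 against 365 in all luminal cells, 882 against 217 within the gate and 885 against 215 in basal cells. Adult FVB/NJ cells were closer to the rudiment, at 643 (A10) and 533 (D12) in LP/alveolar and 584 and 589.6 in basal cells, apart from P7 at 39.5 and 25.0. Hspa5 was at 582 and 558 in all luminal cells, at 577 and 578 within the gate, and at 448 and 858 in basal cells of the rudiment and the adult. Within the gate Sdf2l1 (49.6 against 13.6), Creld2 (46.1 against 21.8), Pdia6 (231 against 106) and Sec61b (515 against 181) were at least 2-fold higher. The adult FVB/NJ LP/alveolar means of these genes were 44.1, 52.7, 291 and 221. In all luminal cells Sdf2l1 was at 49.0 against 66.2 and Pdia6 at 231 against 395. Median member log2 differences were 0.47 within the gate and -0.13 in all luminal cells, against -0.22 and -0.20 over all genes.

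**Figure D4:**
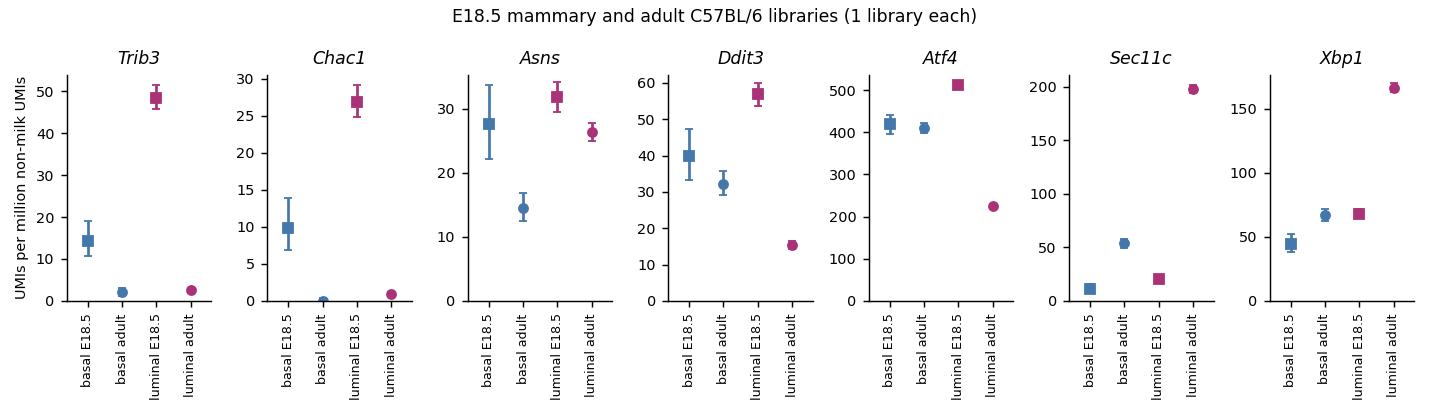
Levels (CPM of non-milk UMIs) of selected genes in basal and luminal cells of the E18.5 mammary and the adult C57BL/6 libraries, 1 library each, with 95% Poisson intervals that cover counting error only. Trib3 in luminal cells is at 48.6 at E18.5 and 2.57 in the adult, and Sec11c at 20.5 and 198.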

How the data were processed

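Deposited 10x Genomics Chromium files gave raw UMI counts per gene and cell barcode, made by the authors with Cell Ranger (3.0.2 per the file headers, 3.1.0 in the submitters' processing notes, which also name mm10), from barcodes with at least 500 reads. Cells passed the upper and lower limits that the study states: over 500 genes, a mitochondrial share below 15% to 25% depending on the library, and upper bounds on genes and counts. These limits kept 5287 of 10877 barcodes in F11 and 6804 of 9878 in D6, while the other libraries lost a smaller share. The part of this loss in the lactation values was not tested. No doublet caller was run, so doublets were limited only by those bounds and by the ratio in the gate. Totals ran from 9920346 UMIs (P7) to 93234616 (D6) per library, and intervals cover counting error only. Of the 12 libraries read, 9 entered the stage tests.

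Cells were gated by marker sums per 10000 non-milk UMIs: basal from 30 and luminal from 8, with a 2-fold ratio between them. ML cells were luminal cells with an ML sum from 10 and at least 2 distinct ML markers. Their ML markers other than Prlr and Ly6a also summed to at least 5. Their ML sum was over 2 times that of the LP/alveolar markers other than Trf, Btn1a1 and Xdh. Other luminal cells with any LP/alveolar marker were LP/alveolar if their ML sum was below 10 or did not exceed their LP/alveolar sum. The rest of the luminal cells were not assigned. Cells with at least 3 distinct markers of a non-epithelial type (2 mural, 4 adipocyte) were set aside. The markers were listed first and the scoring rule was set after the data were seen. Sums of at least 20 cells, without the 8 milk genes, were fitted with edgeR 4.0.16 in R 4.3.3 (TMM scaling, filterByExpr, quasi-likelihood, Benjamini-Hochberg over all genes tested, threshold 0.05). Each class had 1 fit over the 4 replicated stages, adult classes were compared with library as a block, and differences between classes used stage by class terms with library as a block. Log2 changes include TMM scaling and printed levels do not. The steps were tested on simulated data. Alternatives were DESeq2 1.42.0, no TMM, milk genes kept, no low-count filter, at least 1000 genes per cell, stricter and looser gates, and leaving out each library. The members and all lists were chosen with earlier results of these data known. Full statistics went to members that passed in LP/alveolar cells, at most 5 per role, and to 11 members described whatever they did (Hspa5, Hsp90b1, Calr, Xbp1, Sec61b, Ssr4, Atf4, Ddit3, Trib3, Chac1 and Asns). The promoter windows had no entry for Atf6, Hyou1, Manf, Sec11c, Sec61a1, Spcs3 and Ssr2.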

Additional observations from a re-analysis of the deposited data

Results flagged for a closer look

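The adult to lactation change differed between classes by a test of the stage by class term (edgeR quasi-likelihood, adjusted p under 0.05). Against basal cells, 19 members changed more upward in LP/alveolar cells, where 8.15% of genes did. The widest differences in log2 change were 2.46 for Spcs3, 2.18 for P4hb and 2.11 for Asns. Against ML cells, 18 members changed more upward, where 8.28% of genes did, with 3.17 for Spcs3, 3.05 for Chac1 and 2.45 for Ssr4 as the widest. As a share of all UMIs, 18 members changed more downward in each comparison, where 55.9% (basal) and 44.2% (ML) of genes did. The ML side of the Chac1 value rests on 3 UMIs in F11 and 1 in D6 in lactation, and Chac1 was too low for the fit of ML cells alone. No stage had 4 or more libraries, so single outlying libraries could not be tested for.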

How the results depend on the processing

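No paired analysis was possible because the stages share no replicate numbers, and the library block of the class comparisons is part of their main fit.

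With the milk genes in the total and no TMM scaling, the milk transcripts take most lactation UMIs in LP/alveolar cells and a smaller share in basal and ML cells. The log2 changes to lactation therefore fall by construction. Members called were then 31 in LP/alveolar cells from pregnancy day 18.5 to lactation, 27 from adult to lactation, 2 in basal and 1 in ML cells from adult to lactation (6.45% and 7.63% of genes in these last 2). The LP/alveolar adult to lactation log2 changes turned to -2.22 for Calr, -0.33 for P4hb, -0.15 for Sec61b, -1.07 for Ssr1, -0.95 for Ssr3, -0.94 for Srp14, -0.025 for Spcs3, -1.10 for Edem1, -0.87 for Xbp1 and -0.32 for Asns. The differences against basal cells turned to -1.08 for Hspa5, -0.82 for Calr, -1.08 for Canx, -0.85 for Dnajc3, -0.60 for Manf, -0.62 for Sec61a1, -0.14 for Sec61b, -0.74 for Sec61g, -0.59 for Ssr2, -0.054 for Ssr4, -0.88 for Srp14, -0.32 for Sec11c, -1.005 for Spcs1 and -0.84 for Spcs2. Those against ML cells turned to -0.91 for Dnajc3, -0.73 for Manf, -1.06 for Sec61a1, -0.50 for Sec61g, -0.21 for Ssr1, -0.55 for Ssr2, -1.10 for Srp14, -0.87 for Spcs1, -0.28 for Spcs2, -0.52 for Edem1 and -0.33 for Xbp1.

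DESeq2 called 1 member in basal cells from adult to pregnancy day 12.5 and 3 to lactation, 4 in LP/alveolar cells from adult to day 12.5 and 3 from day 18.5 to lactation, and 1 in ML cells from adult to day 12.5 and 1 to lactation. Of all genes 5.2%, 7.72%, 17.9%, 6.83%, 9.76% and 6.76% passed by DESeq2, in the same order. Without the low-count filter the member counts by edgeR were 2, 4, 6, 2, 1 and 2, where 5.42%, 6.98%, 13.6%, 6.45%, 6.85% and 4.7% of genes passed. From adult to pregnancy day 12.5 in LP/alveolar cells, 1 passed without TMM (10.8% of genes) and 1 with the milk genes kept (11.2%). The class differences in change passed in 10 members against basal and 10 against ML cells without TMM (17.4% and 10.7% of genes). With at least 1000 genes per cell they passed in 10 and 10 (9.08% and 4.64% of genes). Calr turned to -0.15 without TMM.

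The cells of the LP/alveolar gate were also used in place of all luminal cells, chosen after the data were seen. Then 8 members in place of 5 were at least 2-fold higher at E18.5 and 2 in place of 8 at least 2-fold lower. Of all genes, 15.9% in place of 18.8% were higher and 25.2% in place of 26.1% lower.

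Leaving out each library gave 6 to 17 calls in LP/alveolar cells from adult to lactation, 0 to 2 from adult to day 12.5 and 0 to 4 from day 18.5 to lactation. It gave 0 to 1 in basal cells from adult to day 12.5, 0 to 2 to lactation, and 0 to 2 in ML cells from adult to day 12.5. The adult classes ranged from 2 to 10 (LP/alveolar against basal), 10 to 22 (ML against basal) and 3 to 11 (LP/alveolar against ML), and the differences in change from 7 to 20 against basal and 8 to 20 against ML cells. Over these fits the LP/alveolar adult to lactation log2 change ran from -1.54 to 0.079 for Hspa5 (positive without P7), from -1.09 to 0.038 for Hsp90b1 (positive without F11), from -0.049 to 0.415 for Calr (negative without D6) and from -0.88 to 0.18 for Ddit3 (positive without D6). Leaving out a library can leave a stage with 1, which is then assumed to vary like the others. The stricter gate, and the looser gate that was added after the data were seen, kept each count within 1.5 times of its value. Except for the milk share above, the cause of these shifts was not tested. Depth limits Chac1, with 1 UMI in P7, and the ML sums, with 152 to 301 cells in each pregnancy and lactation library.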
